A study of Mus musculus with 18 samples.

Results

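Atf4, Atf5, Atf3, Ddit3, Cebpb, Nupr1, Trib3, Chac1, Sesn2 and Gdf15 are 10 regulators and effectors of the integrated stress response, taken by name from the 37224 genes of the count table after their identifiers were matched to mouse symbols. All 10 were found and all 10 had enough counts to be tested in every comparison. They were chosen with earlier results of these data known, so the number of them that changed is a description only. The study sequenced polyadenylated RNA of C57BL/6 mouse embryonic stem cell derivatives to ask what Hoxb1, an anterior homeodomain transcription factor, does in 2 cell contexts. There were 18 libraries in 6 groups of 3. Of the neural progenitors (NPs), the Hoxb1 SAG NPs were labelled as expressing Hoxb1 and received SAG and doxycycline (DOX), while the SAG NPs did not express Hoxb1 and received SAG alone. The Hoxb1 NPs expressed Hoxb1 and received DOX, and the control NPs did not express it and received neither agent. SAG is a small molecule that switches on hedgehog signalling through Smoothened. The neuromesodermal progenitors (NMPs), bipotent cells that give rise to spinal cord and paraxial mesoderm, were Hoxb1 null or wild type and received no agent. Every group expressing Hoxb1 from induction also had DOX, so Hoxb1 and DOX cannot be told apart in the NPs. The sources used here do not give whether the null genotype rests on 1 clone, whether all NPs came from the same line or whether the 3 libraries of a group are separate differentiations. The p-values below therefore measure only the spread between these libraries, which may be technical.

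In the integrated stress response, kinases that sense amino acid shortage, unfolded protein in the endoplasmic reticulum, heme shortage or viral RNA phosphorylate the translation factor eIF2alpha. General translation then drops while the Atf4 and Atf5 messages, which carry upstream open reading frames, are translated more. The ATF4 protein pairs with C/EBP family members and activates genes of amino acid supply together with Atf3, Ddit3, Trib3, Chac1, Sesn2, Nupr1 and Gdf15. RNA levels do not measure the translational step itself.

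The promoters of 4 of the 10 genes hold the motif TGATGNAA, the core of the element that C/EBP and ATF4 dimers bind. These sequences are shown as a description. The 4 genes were higher in null NMPs and lower in Hoxb1 NPs, as were the other 6. They did not move alike in every comparison that follows. Promoter windows came from RefSeq on GRCm38.p6, ran from 250 bases before to 50 bases after a transcription start, and matched all 10 genes by symbol with 12 windows. Both strands were searched, and 3.97% of all 32851 windows of the same length held a match. The windows of Atf3, Chac1, Nupr1 and Trib3 held 1 match each, beginning at position -110 for Atf3, -193 for Chac1, -110 for Nupr1 and 15 for Trib3 relative to the start. The first 280 bases of each window are printed 5′ to 3′ along the gene, with the match in capitals as it reads on that strand. They lie at chr1:191183304-191183583 (minus strand), chr2:119350992-119351271 (plus strand), chr7:126625441-126625720 (minus strand) and chr2:152344031-152344310 (minus strand).
Atf3 promoter: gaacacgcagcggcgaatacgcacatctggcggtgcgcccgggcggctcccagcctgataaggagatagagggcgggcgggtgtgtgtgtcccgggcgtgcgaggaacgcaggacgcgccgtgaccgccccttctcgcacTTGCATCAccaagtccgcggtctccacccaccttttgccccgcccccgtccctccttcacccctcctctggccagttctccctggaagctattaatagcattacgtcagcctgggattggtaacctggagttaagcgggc
Chac1 promoter: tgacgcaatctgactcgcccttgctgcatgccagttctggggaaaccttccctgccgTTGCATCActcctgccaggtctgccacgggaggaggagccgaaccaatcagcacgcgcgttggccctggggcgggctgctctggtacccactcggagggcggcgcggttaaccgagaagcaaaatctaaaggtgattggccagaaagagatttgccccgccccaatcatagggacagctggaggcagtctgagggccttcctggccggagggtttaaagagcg
Nupr1 promoter: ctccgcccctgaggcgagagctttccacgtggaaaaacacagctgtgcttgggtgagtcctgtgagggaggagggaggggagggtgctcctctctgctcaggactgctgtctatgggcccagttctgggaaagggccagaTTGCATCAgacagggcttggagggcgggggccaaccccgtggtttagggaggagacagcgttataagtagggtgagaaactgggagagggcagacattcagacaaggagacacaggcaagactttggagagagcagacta
Trib3 promoter: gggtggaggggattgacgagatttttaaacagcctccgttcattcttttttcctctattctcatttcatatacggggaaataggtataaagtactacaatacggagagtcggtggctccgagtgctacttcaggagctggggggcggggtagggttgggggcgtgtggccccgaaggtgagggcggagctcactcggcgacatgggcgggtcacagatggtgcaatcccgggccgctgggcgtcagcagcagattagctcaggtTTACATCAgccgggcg
The matched letters are the same in Atf3, Chac1 and Nupr1. The Pbx and Hox motif TGATNNAT was found in the Atf4 window alone, at position -228, against 8.85% of all windows. The full cyclic AMP response element TGACGTCA was in 0 of the 12 windows (1.79% of all), and the endoplasmic reticulum stress element, CCAAT followed after 9 bases by CCACG, was in 0 (0.119% of all). The windows with TGATGNAA did not hold TGATNNAT. The RefSeq start of Nupr1 lies inside the gene's span in the count table. A match describes letters and not binding, and the windows of the other 6 genes held no TGATGNAA.

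Hoxb1 itself was checked first. It stood at 14.8, 16.2 and 14.8 CPM (counts scaled to library size, with TMM factors over all 18 libraries) in the Hoxb1-null NMPs, against 241, 272 and 250.1 CPM in the wild-type NMPs (log2 change -4.06, SE 0.0594, adjusted p = 2.51e-23). It averaged 592 ± 21.2 CPM in Hoxb1 SAG NPs and 0.459 ± 0.0662 CPM in SAG NPs, and 323 ± 16 CPM in Hoxb1 NPs and 0.358 ± 0.288 CPM in control NPs (SD, n = 3 each). Total counts lay between 22610407 and 26974315 in libraries with SAG, between 13301476 and 14505711 in NPs without SAG and between 16523276 and 21141058 in NMPs. The library numbers in the labels form 1 run for each of these sets, from 2533 to 2538, from 7390 to 7395 and from 8085 to 8090, so a SAG effect and the library set cannot be told apart, while both Hoxb1 states occur within each set. The 6 NMP markers summed to 1396 to 1765 CPM over the NMP libraries and 7.71 to 45.1 CPM over the NP libraries. The 6 neural progenitor markers summed to 809 to 1423 CPM over the NP libraries and 323 to 355 CPM over the NMP libraries. Most of the NMP sum was Nes, at 325 CPM in null and 318 CPM in wild-type NMPs. Against its list, Nes was lower in the NP groups, with means of 269 to 312 CPM.

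The first question was what loss of Hoxb1 did in NMPs. All 10 stress response genes were higher in Hoxb1-null than in wild-type NMPs, by 1.28-fold for Sesn2 to 2.62-fold for Trib3. Of all 15032 genes tested in this comparison, 14.9% were called higher, at an adjusted p under 0.05 in edgeR's quasi-likelihood test with Benjamini-Hochberg adjustment. The median log2 change of the 10 genes was 0.78, and that of all tested genes was -0.00013. In each of the 10 genes every null library lay above every wild-type library. In bulk RNA, a higher level per cell and a larger share of cells with a high level cannot be told apart, here and in all comparisons that follow.

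Among the transcription factors, Atf4 (chromosome 15, 80255184 to 80257540, plus strand, mm10), the central activator, stood at 369, 356 and 369 CPM in null and 290.4, 276 and 281 CPM in wild-type NMPs (log2 change 0.37, SE 0.0367, adjusted p = 1.09e-07). Its rise was small in fold, 1.29, beside a narrow spread between libraries. Atf5 (chromosome 7, 44812257 to 44816658, minus strand), a related bZIP factor with the same type of translational control, had 92.7, 82.2 and 89.6 CPM in null and 59.7, 58.9 and 55.8 CPM in wild-type NMPs (log2 change 0.60, SE 0.0527, adjusted p = 1.8e-08). Ddit3 (chromosome 10, 127290774 to 127296288, plus strand), which encodes the death-promoting factor CHOP, had 35.4, 28.3 and 33.9 CPM in null and 19.3, 16.8 and 17.8 CPM in wild-type NMPs (log2 change 0.86, SE 0.0839, adjusted p = 9.34e-08). The lowest null library for Ddit3, replicate 2, was still above the highest wild-type library. Atf3 (chromosome 1, 191170296 to 191183340, minus strand), a bZIP factor induced by many stresses, had 28.4, 25.7 and 25.6 CPM in null against 19, 14.6 and 15.8 CPM in wild-type NMPs, 1.62-fold higher (adjusted p = 2.49e-06). Cebpb (chromosome 2, 167688915 to 167690418, plus strand), a C/EBP partner of ATF4, had 24.3, 22.2 and 27.9 CPM in null against 19.1, 16 and 17.8 CPM in wild-type NMPs, 1.4-fold higher (adjusted p = 0.000222). Nupr1 (chromosome 7, 126623249 to 126627010, minus strand), a small stress-induced nuclear protein, had 7.19, 8.82 and 6.84 CPM in null against 3.21, 3.82 and 3.72 CPM in wild-type NMPs, 2.12-fold higher (adjusted p = 4.09e-06). For all 3 of these genes the libraries of the groups stayed apart.

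Of the effectors, Trib3, Gdf15 and Chac1 had the 3 largest rises of the 10 genes and Sesn2 the smallest. Trib3 (chromosome 2, 152337422 to 152344032, minus strand), a pseudokinase that feeds back on ATF4, had 42.9, 38.4 and 36.7 CPM in null and 15.7, 15.1 and 14.1 CPM in wild-type NMPs (log2 change 1.39, SE 0.0758, adjusted p = 4.16e-12). It ranked 101st from the highest change among the 15032 genes. Chac1 (chromosome 2, 119351229 to 119354381, plus strand), which breaks down glutathione, had 8.83, 7.25 and 7.71 CPM in null and 3.8, 3.67 and 3.2 CPM in wild-type NMPs (log2 change 1.15, SE 0.135, adjusted p = 9.64e-07). Sesn2 (chromosome 4, 132492032 to 132510501, minus strand), a leucine sensor that restrains mTORC1, had 229, 215 and 238 CPM in null against 188, 173 and 171 CPM in wild-type NMPs, the smallest of the 10 changes (adjusted p = 2.42e-06). Gdf15 (chromosome 8, 70629393 to 70632456, minus strand), a secreted stress cytokine of the TGF-beta superfamily, rested on few reads, 14, 23 and 20 counts in null and 9, 7 and 7 counts in wild-type libraries (log2 change 1.34, SE 0.334, adjusted p = 0.004). It was left untested when at least 1 CPM was required in all libraries of a group, and the other 9 genes stayed called higher. Beside these rises, all 5 pluripotency markers were detected and summed to 540 to 592 CPM in null and 405 to 431 CPM in wild-type NMPs. Most of that sum was Pou5f1, at 510 CPM in null and 385 CPM in wild-type NMPs. Nanog averaged lower in null NMPs (11.4 CPM, against 11.8 CPM in wild-type NMPs), while Zfp42, Dppa5a and Tfcp2l1 averaged higher. The 4 paraxial mesoderm markers summed to 458 to 465 CPM in null and 541 to 598 CPM in wild-type NMPs. The 5 neuron markers summed to 108 to 111 CPM in null and 137 to 148 CPM in wild-type NMPs. That lower sum came from Stmn2 (64.7 CPM in null, 103 CPM in wild-type NMPs). Tubb3, Elavl3, Elavl4 and Dcx averaged higher in null than in wild-type NMPs. The 6 NMP markers, all detected, summed to 1396 to 1482 CPM in null and 1580 to 1765 CPM in wild-type NMPs, with Fgf8 at 29.8 CPM in null and 71.4 CPM in wild-type NMPs. Mitochondrially encoded genes took 0.792% to 0.902% of counts in null and 0.97% to 0.985% in wild-type NMPs. The part of these differences in the result was not tested.

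**Figure D1:**
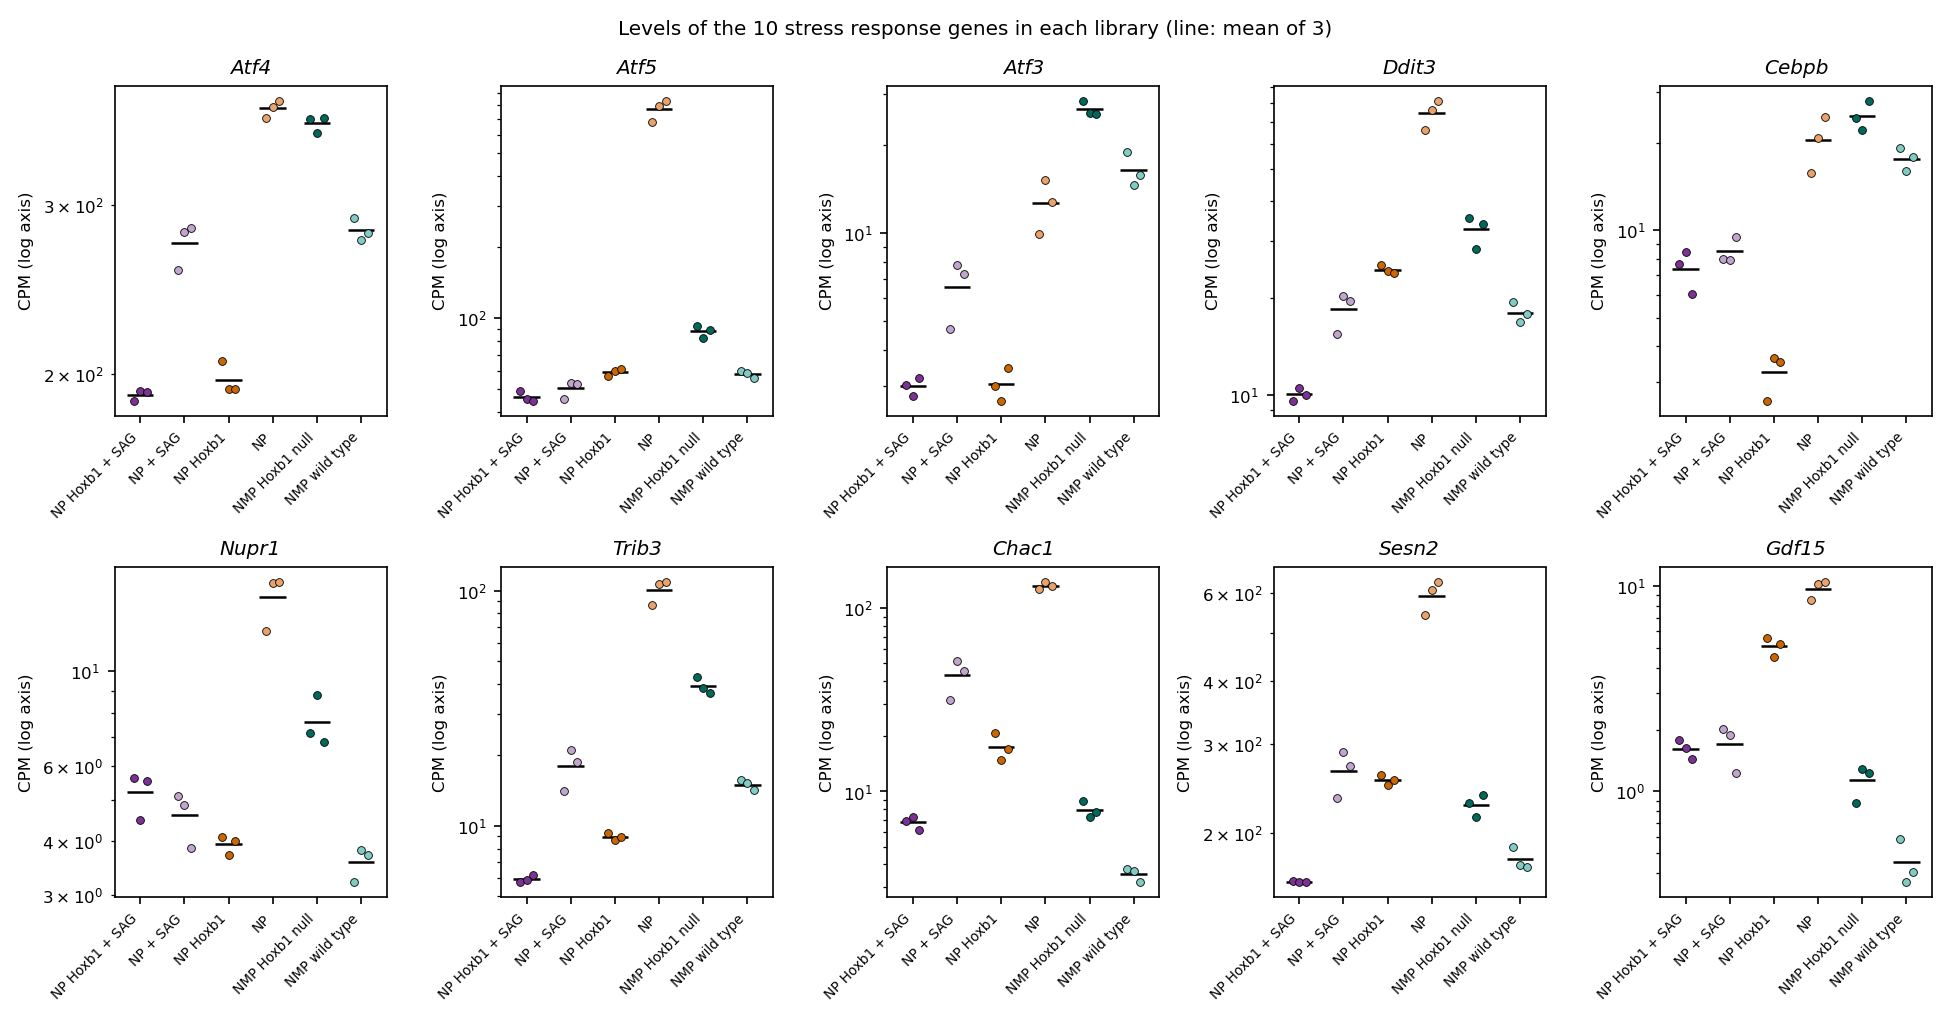
CPM on a log axis of the 10 genes in each of the 18 libraries, 1 panel per gene, with points for libraries and a line at the mean of 3. In every panel the null NMPs lie above the wild-type NMPs and the Hoxb1 NPs lie below the control NPs.

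The second question was what induced Hoxb1 did in NPs without SAG. All 10 genes were lower in Hoxb1 NPs than in control NPs, by 1.88-fold for Gdf15 to 12.8-fold for Atf5, where 22.1% of all 16238 tested genes were called lower. Their median log2 change was -1.97, that of all tested genes was 0.0031, and in each of the 10 every Hoxb1 library lay below every control library. From the lowest change upwards Atf5 ranked 7th, Trib3 11th, Chac1 21st and Cebpb 28th of the 16238 genes. DOX was given with Hoxb1, and a difference between lines, if there was one, is not separated from Hoxb1.

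Atf5 fell furthest of the factors, to 57.2, 59.8 and 61.1 CPM in Hoxb1 NPs, against 678, 792 and 832 CPM in control NPs (log2 change -3.68, SE 0.0922, adjusted p = 5.23e-10). Atf4 had 206, 193 and 193 CPM in Hoxb1 NPs and 369, 379 and 384 CPM in control NPs (log2 change -0.92, SE 0.0357, adjusted p = 4.09e-24). Thus Atf4 RNA was 1.9-fold lower where Atf5 RNA was 12.8-fold lower. Cebpb had 2.59, 3.63 and 3.53 CPM in Hoxb1 NPs and 15.8, 20.8 and 24.5 CPM in control NPs (log2 change -2.64, SE 0.218, adjusted p = 5.07e-07). Atf3 had 3, 2.67 and 3.46 CPM in Hoxb1 NPs against 9.91, 15.2 and 12.8 CPM in control NPs, 4.11-fold lower (adjusted p = 1.42e-06). The Hoxb1 libraries were close to each other for Atf3, while the control libraries were more spread. Nupr1 had 4.09, 3.71 and 4.01 CPM in Hoxb1 NPs against 12.4, 16.1 and 16.1 CPM in control NPs, 3.74-fold lower (adjusted p = 1.02e-15). Ddit3 had 25.3, 24.1 and 23.9 CPM in Hoxb1 NPs against 66.4, 76.4 and 81.4 CPM in control NPs, 3.04-fold lower (adjusted p = 4.92e-12).

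Of the effectors, Trib3 fell to 9.28, 8.68 and 8.99 CPM in Hoxb1 NPs, against 86.8, 106 and 108 CPM in control NPs (log2 change -3.47, SE 0.161, adjusted p = 5.18e-08). Chac1 had 20.7, 14.9 and 17.1 CPM in Hoxb1 NPs and 127, 138 and 131 CPM in control NPs (log2 change -2.89, SE 0.189, adjusted p = 1.54e-06). The Trib3 libraries of Hoxb1 NPs were close to each other, those of Chac1 were more spread, and control replicate 1 was the lowest control for both genes. Sesn2 had 261, 249 and 254 CPM in Hoxb1 NPs against 542, 607 and 629 CPM in control NPs, 2.31-fold lower (adjusted p = 1.05e-06). Gdf15 had 5.59, 4.52 and 5.19 CPM in Hoxb1 NPs against 8.49, 10.2 and 10.4 CPM in control NPs, 1.88-fold lower (adjusted p = 2.38e-07). Control NP replicate 1 was the lowest of its group for all 10 genes, and the 10 genes stayed called lower when any 1 library was left out. Beside these falls, the 5 neuron markers summed to 1261 to 1327 CPM in Hoxb1 NPs and 886 to 957 CPM in control NPs. The 5 mesenchyme markers summed to 652 to 682 CPM in Hoxb1 NPs and 234 to 248 CPM in control NPs. Most of that sum in Hoxb1 NPs was Col1a2 (510 CPM, against 128 CPM in control NPs). Lum (5.66 and 6.14 CPM) and Twist1 (19.4 and 21.3 CPM) averaged lower in Hoxb1 NPs than in control NPs. The 5 pluripotency markers summed to 100.3 to 123 CPM in Hoxb1 NPs and 195 to 222 CPM in control NPs. Mitochondrially encoded genes took 1.00% to 1.12% of counts in Hoxb1 NPs and 0.933% to 0.96% in control NPs. The 6 NMP markers summed to 7.71 to 7.75 CPM in Hoxb1 NPs and 22.2 to 23.8 CPM in control NPs, with Cdx1 at 0 in Hoxb1 NPs and 0.048 CPM in control NPs. The part of these differences in the result was not tested.

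**Figure D2:**
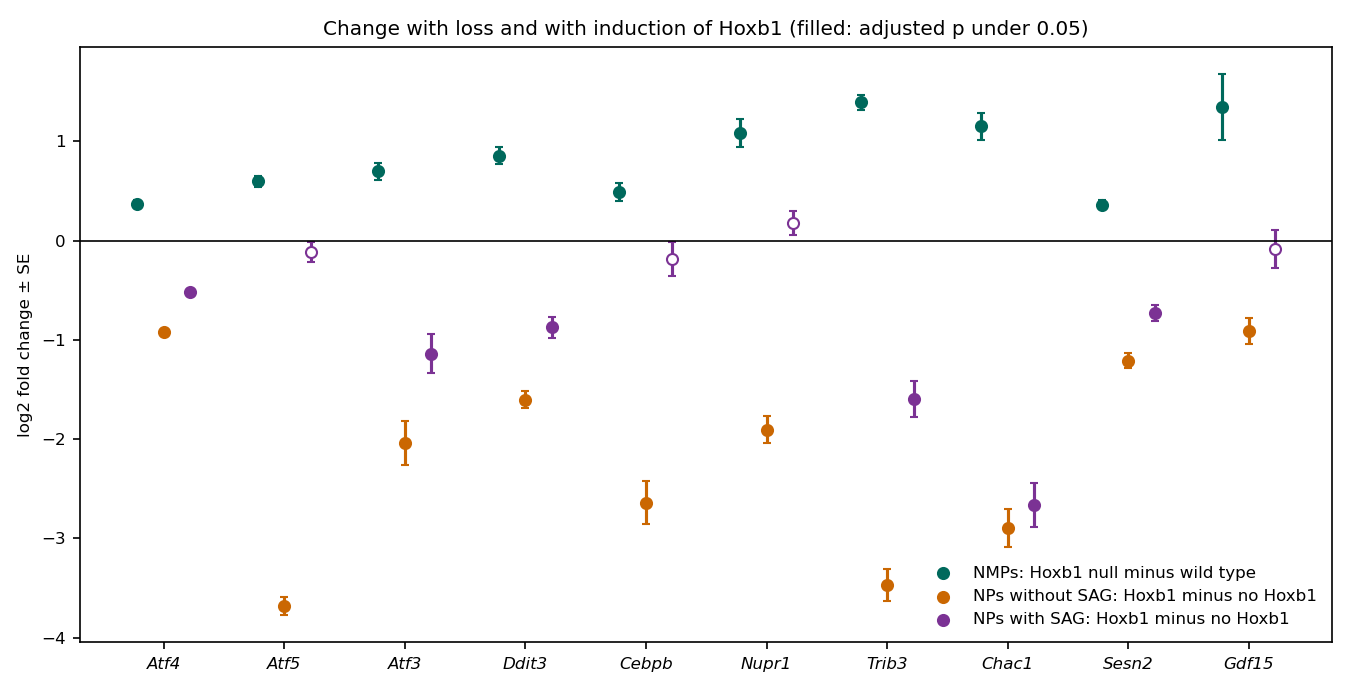
Log2 fold changes with SE of the 10 genes for null minus wild-type NMPs and for Hoxb1 minus no Hoxb1 in NPs without and with SAG, with filled points at an adjusted p under 0.05. The NMP changes lie between 0.36 and 1.39, those without SAG between -3.68 and -0.91, and 4 genes with SAG have open points.

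The third question was whether Hoxb1 acted alike in NPs given SAG. In that setting 6 of the 10 genes were lower in Hoxb1 SAG NPs than in SAG NPs, where 21.9% of all 16238 tested genes were called lower, and 0 were higher. The 6 were Atf4, Atf3, Ddit3, Trib3, Chac1 and Sesn2, and in each of them the libraries of the groups did not overlap. Atf5, Cebpb, Nupr1 and Gdf15 did not pass the test. The median log2 change of the 10 was -0.62, against 0.0012 for all tested genes.

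Chac1 had the largest fall, to 6.9, 7.3 and 6.19 CPM in Hoxb1 SAG NPs, against 31.6, 51.7 and 45.7 CPM in SAG NPs (log2 change -2.66, SE 0.218, adjusted p = 9.67e-06), and ranked 11th from the lowest change. Trib3 had 5.75, 5.87 and 6.19 CPM in Hoxb1 SAG NPs and 14, 21.1 and 18.6 CPM in SAG NPs (log2 change -1.59, SE 0.185, adjusted p = 7.78e-05). SAG NP replicate 1 was the lowest of its group for both genes, and for 7 of the 10 in all. Atf4 had 188, 192 and 192 CPM in Hoxb1 SAG NPs and 256, 281 and 284 CPM in SAG NPs (log2 change -0.52, SE 0.034, adjusted p = 1.88e-16). Atf3 had 3.02, 2.78 and 3.19 CPM in Hoxb1 SAG NPs against 4.69, 7.76 and 7.27 CPM in SAG NPs, 2.2-fold lower (adjusted p = 0.000231). Ddit3 had 9.58, 10.5 and 10.01 CPM in Hoxb1 SAG NPs against 15.5, 20.2 and 19.6 CPM in SAG NPs, 1.83-fold lower (adjusted p = 7.85e-07). For both of these factors the Hoxb1 SAG libraries were close together. Sesn2 had 160.0, 159 and 159.6 CPM in Hoxb1 SAG NPs against 235, 290.0 and 272 CPM in SAG NPs, 1.66-fold lower (adjusted p = 5.45e-05). Its Hoxb1 SAG libraries were almost equal.

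Atf5 had 49, 45.7 and 44.8 CPM in Hoxb1 SAG NPs and 45.6, 53.3 and 52.7 CPM in SAG NPs, and the libraries overlapped (log2 change -0.12, SE 0.0999, adjusted p = 0.388). Without control NP replicate 1, a library outside this comparison that shares the fit, its adjusted p was 0.0413. Cebpb had 7.66, 8.42 and 6.04 CPM in Hoxb1 SAG NPs and 7.95, 7.9 and 9.52 CPM in SAG NPs (log2 change -0.19, SE 0.172, adjusted p = 0.414). Nupr1 had 5.62, 4.48 and 5.53 CPM in Hoxb1 SAG NPs and 5.1, 4.87 and 3.86 CPM in SAG NPs (log2 change 0.17, SE 0.124, adjusted p = 0.266). These 3 genes were at low levels in both groups relative to control NPs. Gdf15 had 42, 42 and 37 counts in Hoxb1 SAG NPs and 48, 54 and 30 counts in SAG NPs (log2 change -0.082, SE 0.192, adjusted p = 0.769). A p above the threshold does not show that these 4 genes were equal between the groups. Beside this comparison, the 6 neural progenitor markers summed to 809 to 854 CPM in Hoxb1 SAG NPs and 1035 to 1069 CPM in SAG NPs. The 5 neuron markers summed to 700.2 to 725 CPM in Hoxb1 SAG NPs and 590.4 to 615 CPM in SAG NPs, and the 4 endoderm markers to 39.9 to 45.3 CPM in Hoxb1 SAG NPs and 73.5 to 73.7 CPM in SAG NPs, and their part in the result was not tested. Of the neuron markers, Elavl3 (77.7 and 84.5 CPM) and Dcx (106 and 107 CPM) averaged lower in Hoxb1 SAG NPs than in SAG NPs. Most of the endoderm sum was Foxa1, at 37.9 CPM in Hoxb1 SAG NPs and 68.9 CPM in SAG NPs. Against that sum, Gata6 averaged 2.32 CPM in Hoxb1 SAG NPs and 1.56 CPM in SAG NPs. Sox17 and Cer1 averaged lower in Hoxb1 SAG NPs. The 6 NMP markers summed to 13.4 to 15.8 CPM in Hoxb1 SAG NPs and 42.2 to 45.1 CPM in SAG NPs, and their part was likewise not tested. The 5 mesenchyme markers overlapped, at 851 to 932 CPM in Hoxb1 SAG NPs and 856 to 891 CPM in SAG NPs.

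The difference between the 2 Hoxb1 effects was tested directly, as the effect with SAG minus the effect without it. It was above 0 for 9 of the 10 genes, where 16.8% of all 16238 tested genes were called higher, so the change with Hoxb1 was less negative in the presence of SAG. Atf5 had the largest difference (log2 difference 3.57, SE 0.137, adjusted p = 2.94e-08), followed by Cebpb (log2 difference 2.45, SE 0.288, adjusted p = 2.46e-05), Nupr1 (log2 difference 2.08, SE 0.185, adjusted p = 2.95e-12) and Trib3 (log2 difference 1.88, SE 0.274, adjusted p = 0.000492). Chac1 did not pass (log2 difference 0.23, SE 0.324, adjusted p = 0.637), with log2 changes of -2.66 with SAG and -2.89 without SAG. Atf3 passed narrowly (0.90, adjusted p = 0.0357). Its adjusted p lay between 0.0531 and 0.105 when any of Hoxb1 SAG replicates 1, 2 and 3, Hoxb1 replicates 1, 2 and 3 or control replicate 3 was left out alone. The other 4 were Gdf15 (0.83, adjusted p = 0.00488), Ddit3 (0.73, adjusted p = 0.000289), Sesn2 (0.48, adjusted p = 0.00872) and Atf4 (0.41, adjusted p = 8.72e-09). This difference is built from the libraries of both single comparisons and spans the library sets.

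**Figure D3:**
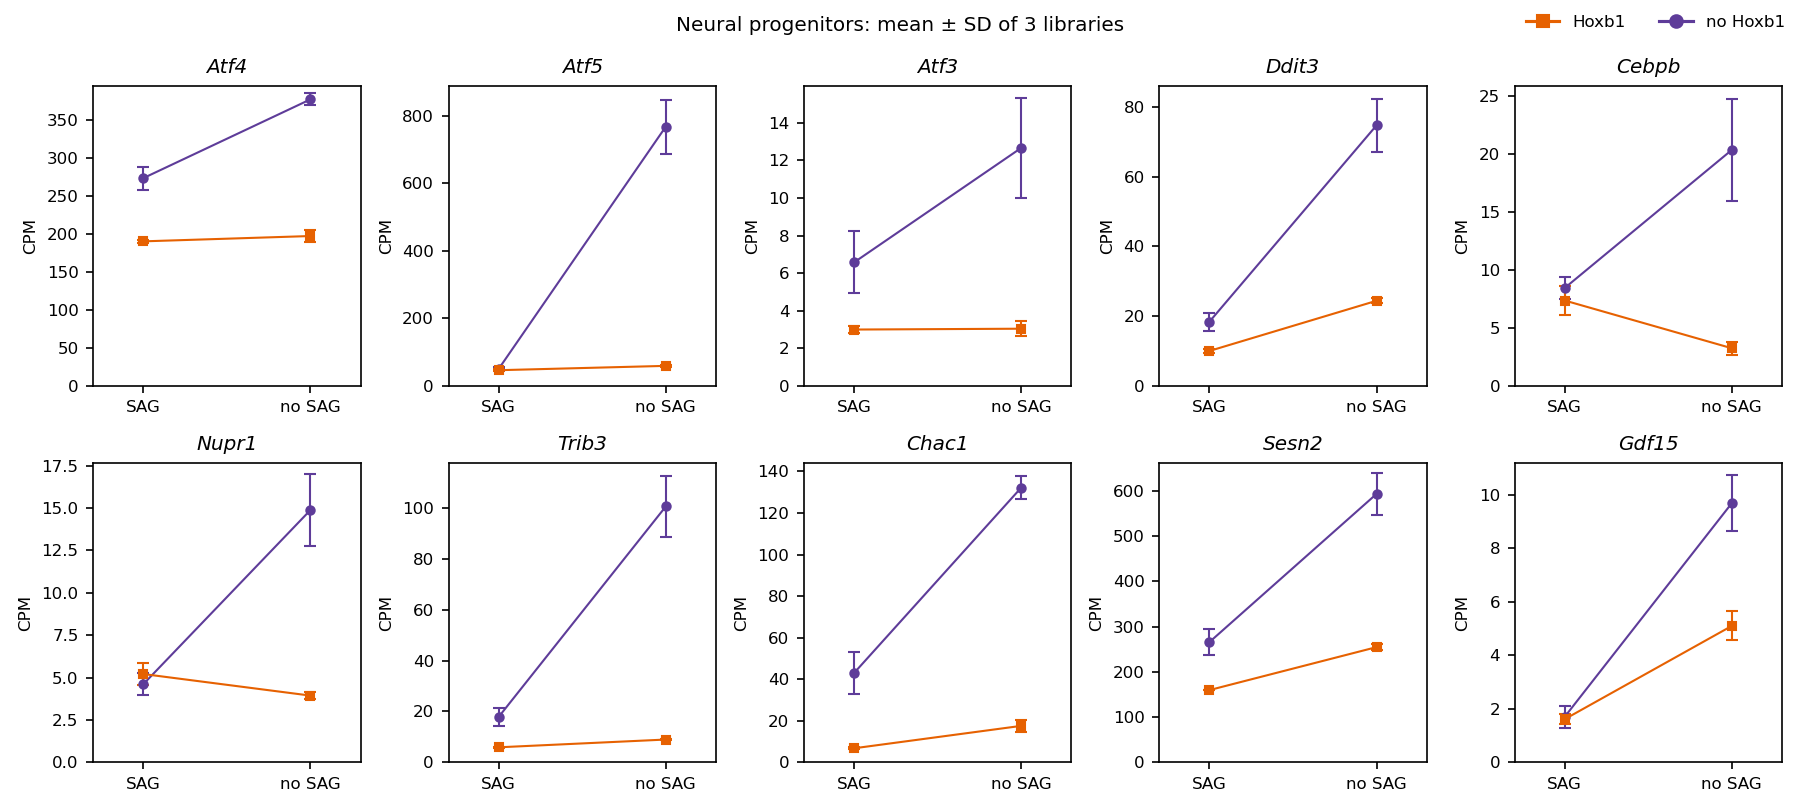
CPM of the 10 genes in the 4 NP groups (mean ± SD of 3 libraries), with SAG on the left, no SAG on the right, squares for Hoxb1 and circles for no Hoxb1. The lines converge at SAG for Atf5, Cebpb, Nupr1 and Gdf15, while Chac1 keeps a wide gap.

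SAG itself was set against its absence in cells without and with Hoxb1. Without Hoxb1, all 10 genes were lower in SAG NPs than in control NPs, where 36.3% of all 16238 tested genes were called lower, with a median log2 change of -1.65 against 0.011 for all genes. Atf5 averaged 50.5 ± 4.24 CPM in SAG NPs and 767 ± 80.02 CPM in control NPs, 15.1-fold lower (log2 change -3.92, SE 0.0885, adjusted p = 7.4e-11). Gdf15 averaged 1.71 ± 0.416 CPM in SAG NPs and 9.69 ± 1.04 CPM in control NPs (log2 change -2.49, SE 0.145, adjusted p = 8.34e-19). Trib3 was 5.57-fold, Ddit3 4.04-fold, Nupr1 3.21-fold and Chac1 3.05-fold lower in SAG NPs. The smallest change was that of Atf4 (log2 change -0.46, SE 0.0339, adjusted p = 1.66e-15). In none of the 10 did the SAG and control libraries overlap. The same control libraries served as the reference for Hoxb1 NPs, so the falls with SAG and with Hoxb1 are not independent results. Beside these falls, the 5 mesenchyme markers summed to 856 to 891 CPM in SAG NPs and 234 to 248 CPM in control NPs, the 4 endoderm markers to 73.5 to 73.7 CPM in SAG NPs and 17.9 to 21.8 CPM in control NPs, and the 5 neuron markers to 590.4 to 615 CPM in SAG NPs and 886 to 957 CPM in control NPs. Most of the endoderm sum was Foxa1, at 68.9 CPM in SAG NPs and 18.3 CPM in control NPs. Sox17, Cer1 and Gata6 were low, at 2.25, 0.915 and 1.56 CPM in SAG NPs, and averaged lower still in control NPs. The 5 pluripotency markers summed to 319 to 346 CPM in SAG NPs and 195 to 222 CPM in control NPs. Of these, Tfcp2l1 averaged lower in SAG NPs. The 6 neural progenitor markers summed to 1035 to 1069 CPM in SAG NPs and 1310 to 1423 CPM in control NPs. Against that sum, Sox3 and Hes5 averaged higher in SAG NPs. Mitochondrially encoded genes took 1.198% to 1.299% of counts in SAG NPs and 0.933% to 0.96% in control NPs, and the part of these differences was not tested.

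With Hoxb1 present, 6 genes were lower in Hoxb1 SAG NPs than in Hoxb1 NPs, where 35.8% of all tested genes were called lower, and 2 were higher, where 36.4% were called higher. Cebpb averaged 7.37 ± 1.22 CPM in Hoxb1 SAG NPs and 3.25 ± 0.574 CPM in Hoxb1 NPs, 2.27-fold higher (log2 change 1.18, SE 0.246, adjusted p = 0.000906). Nupr1 was 1.32-fold higher (adjusted p = 0.0171), and was not called without Hoxb1 SAG replicate 1, Hoxb1 SAG replicate 3 or Hoxb1 replicate 2 (adjusted p = 0.0537 to 0.0715). Gdf15 was 3.17-fold, Chac1 2.6-fold, Ddit3 2.44-fold, Sesn2 1.6-fold and Atf5 1.28-fold lower. Trib3 was at the threshold (log2 change -0.60, SE 0.242, adjusted p = 0.0491) and lost its call when any of Hoxb1 SAG replicates 1 to 3, Hoxb1 replicates 1 to 3, SAG replicate 3 or control replicate 2 was left out alone (adjusted p = 0.0527 to 0.125), or with upper-quartile scaling (0.0665). Atf4 (-0.054) and Atf3 (-0.028) did not pass. Beside these changes, the 5 neuron markers summed to 700.2 to 725 CPM in Hoxb1 SAG NPs and 1261 to 1327 CPM in Hoxb1 NPs, the 5 mesenchyme markers to 851 to 932 CPM in Hoxb1 SAG NPs and 652 to 682 CPM in Hoxb1 NPs, and the mitochondrial share was 1.25% to 1.36% in Hoxb1 SAG NPs and 1.00% to 1.12% in Hoxb1 NPs, whose part was not tested. Against the mesenchyme sum, Col1a2 averaged 267 CPM in Hoxb1 SAG NPs and 510 CPM in Hoxb1 NPs. Col1a1, Postn, Lum and Twist1 averaged higher in Hoxb1 SAG NPs. The 5 pluripotency markers summed to 273 to 301 CPM in Hoxb1 SAG NPs and 100.3 to 123 CPM in Hoxb1 NPs. The 6 neural progenitor markers summed to 809 to 854 CPM in Hoxb1 SAG NPs and 1349 to 1361 CPM in Hoxb1 NPs. The part of these 2 lists was likewise not tested. Library set and depth differ with SAG in both of these comparisons and cannot be told apart from it.

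Loss and gain of Hoxb1 were then set side by side over the 14531 genes tested in both fits. These comparisons share no libraries. Without SAG, 630 genes were higher in null NMPs and lower in Hoxb1 NPs, 4.34% of the genes, which is 29.7% of the 2121 genes higher in null NMPs and 19.3% of the 3256 genes lower in Hoxb1 NPs. All 10 stress response genes were among them. The 10 were chosen with earlier results of these data known, so this count is a description and no independent support. With SAG the corresponding number was 638, or 4.39% of the genes, 30.1% of those higher in null NMPs and 20.4% of the 3126 lower in Hoxb1 SAG NPs, and it included 6 of the 10. Trib3 changed by 1.39 in null NMPs, -3.47 in Hoxb1 NPs and -1.59 in Hoxb1 SAG NPs on the log2 scale. Chac1 changed by 1.15 in null NMPs, -2.89 in Hoxb1 NPs and -2.66 in Hoxb1 SAG NPs. Presence of Hoxb1 thus went with the lower level of these 2 genes in all 3 settings.

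**Figure D4:**
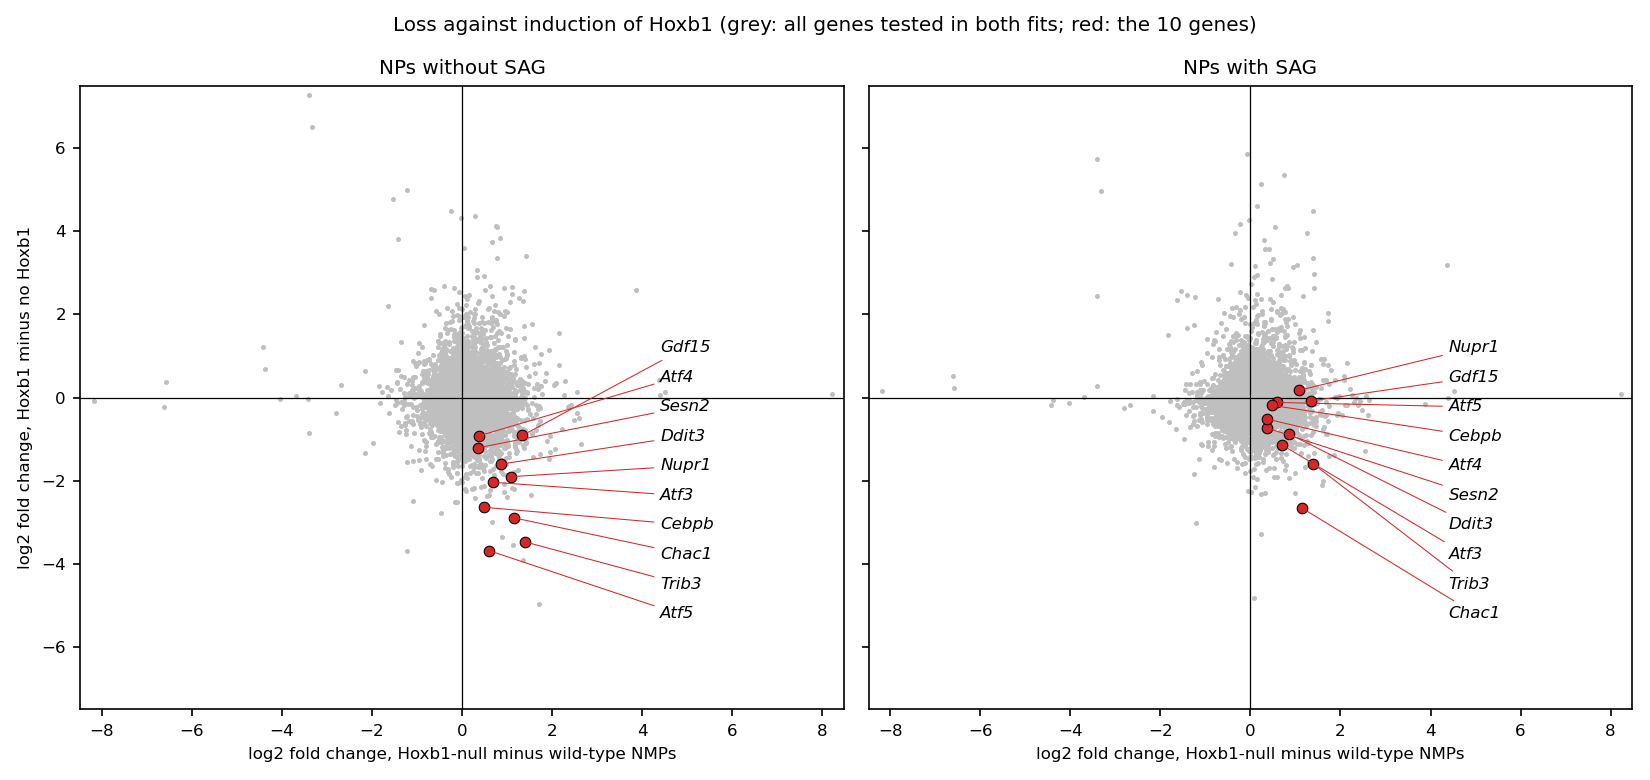
Log2 fold change of null minus wild-type NMPs on the x axis against Hoxb1 minus no Hoxb1 in NPs on the y axis, without SAG on the left and with SAG on the right, for all genes tested in both fits except Hoxb1. Without SAG the 10 genes (red, named) lie right of 0 and below 0, and with SAG Nupr1 lies above 0.

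Whether the sizes differed was tested over all 18 libraries, with the effect of presence over absence of Hoxb1 in NPs minus the same effect, wild type over null, in NMPs. Without SAG the fall was larger in NPs for 9 of the 10 genes, where 17.6% of all 16761 tested genes were called lower. Atf5 had the largest difference (log2 difference -3.09, SE 0.114, adjusted p = 1.55e-12), then Cebpb (log2 difference -2.16, SE 0.256, adjusted p = 2.65e-06), Trib3 (log2 difference -2.09, SE 0.201, adjusted p = 4.42e-07) and Chac1 (log2 difference -1.75, SE 0.393, adjusted p = 0.00338). Gdf15 did not pass (log2 difference 0.43, SE 0.372, adjusted p = 0.407). With SAG the differences went both ways. Atf5 (0.48), Nupr1 (1.25) and Gdf15 (1.26) were called higher, so that the effect seen in NMPs was the more negative one, where 15.9% of all genes were called higher. Chac1 (-1.52), Sesn2 (-0.37) and Atf4 (-0.15) were called lower, where 15.7% were. Atf3, Ddit3, Trib3 and Cebpb did not pass (adjusted p = 0.157, 0.934, 0.497 and 0.318). The call for Gdf15 was lost without wild-type NMP replicate 2 (adjusted p = 0.0546) and that for Atf4 without SAG replicate 3 (adjusted p = 0.0593). Without SAG replicate 1, Atf3 (0.00417) and Trib3 (0.0449) had adjusted p-values under the threshold and joined the lower ones, and with no filter on low counts Atf3 passed as well (0.013).

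Over the 6 groups, control NPs had the highest mean of 8 genes, and null NMPs that of Atf3 and Cebpb. The ratio of the highest to the lowest group mean ran from 1.98 for Atf4 to 37.2 for Chac1. Chac1 followed the order control NPs, SAG NPs, Hoxb1 NPs, null NMPs, Hoxb1 SAG NPs and wild-type NMPs, of which only null NMPs and Hoxb1 SAG NPs overlapped as neighbours. For Trib3 the order was control NPs, null NMPs, SAG NPs, wild-type NMPs, Hoxb1 NPs and Hoxb1 SAG NPs, with SAG NPs and wild-type NMPs overlapping. For Atf5, control NPs stood alone at the top, null NMPs came next, and the libraries of Hoxb1 NPs and wild-type NMPs overlapped, as did those of SAG NPs and Hoxb1 SAG NPs. Cebpb overlapped between null NMPs and control NPs and between control NPs and wild-type NMPs. Per kilobase of summed exon length, Atf5 averaged 385 ± 40.2 RPKM (CPM per kilobase) in control NPs, above the 219 ± 4.47 RPKM of Atf4 there. In the other 5 groups Atf4 had the higher RPKM, 110.5 to 211 over group means against 23.3 to 44.3 for Atf5. The lowest mean of any of the 10 genes was that of Gdf15 in wild-type NMPs, 0.453 ± 0.121 CPM.

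The genes whose levels followed 4 of the factors and effectors most closely were taken by Pearson's r of log2(CPM + 1) over the 18 libraries, among 10795 candidates. They are descriptions, since the 18 points share 6 groups and 3 library sets. For Atf4 they were Ifrd1 (r = 0.96), Nars (r = 0.96), the cytosolic asparaginyl-tRNA synthetase, and Taf15 (r = 0.95). For Atf5 they were Trim66 (r = 0.98), Sars (r = 0.97), the seryl-tRNA synthetase, and Slc7a3 (r = 0.97), a cationic amino acid transporter. Trim66 averaged 7.16 CPM in Hoxb1 NPs and 225 CPM in control NPs. For Trib3 they were Wnt9a (r = 0.98), Slc3a2 (r = 0.95), the heavy chain of amino acid exchangers, and Mars (r = 0.94), the methionyl-tRNA synthetase. For Ddit3 they were Psat1 (r = 0.97), an enzyme of serine synthesis, Chd5 (r = 0.96) and Rab10 (r = 0.96). Among the 10 genes themselves the highest r was that of Atf4 with Trib3 (0.93) and the lowest that of Atf3 with Gdf15 (-0.28).

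Some of the 10 genes share exon bases with other genes. The sources used here do not give the strand setting of the counting, so reads of such stretches cannot be assigned with certainty. Cebpb shares 312 bases with Tmem189 on the opposite strand, which averaged 18.03 CPM in Hoxb1 NPs and 17.7 CPM in control NPs (log2 change 0.038). Ddit3 shares 68 bases with Mars on the opposite strand, whose log2 change was -1.03 in Hoxb1 against control NPs and 0.062 in null against wild-type NMPs, and 13 with the predicted gene Gm4189, at most 0.473 CPM. Atf5 shares 82 bases with Il4i1 on the opposite strand, which averaged 2.07 CPM in Hoxb1 NPs and 2.73 CPM in control NPs, and with 1 gene that has no symbol in the tables used. That gene averaged 119 CPM in Hoxb1 NPs and 191 CPM in control NPs (log2 change -0.67). Gm12981 lies within the span of Sesn2 and shares 0 exon bases with it. The exons of the remaining 6 genes overlap no other gene of the table.

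Other steps of the pathway were read from lists of named genes. As background, 13.9% of all tested genes were called lower in null NMPs, 24.1% were called higher in Hoxb1 NPs and 21.4% in Hoxb1 SAG NPs, beside the shares given above. The upstream sensors and regulators, taken as a list, gave calls in both directions. Of 10 tested eIF2alpha kinases and phosphatase regulators, 3 were higher and 3 lower in null NMPs (median log2 change -0.016), 3 higher and 3 lower in Hoxb1 NPs (0.0022), and 4 higher and 2 lower in Hoxb1 SAG NPs (0.10). Ppp1r15a, the inducible eIF2alpha phosphatase subunit GADD34, averaged 93.3 ± 6.04 CPM in null NMPs and 63.7 ± 2.01 CPM in wild-type NMPs (log2 change 0.55, adjusted p = 5.61e-08). It averaged 21.5 ± 1.31 CPM in Hoxb1 NPs and 57.5 ± 5.25 CPM in control NPs (log2 change -1.41, adjusted p = 1.19e-15). Eif2ak3, the kinase PERK, averaged 47.4 ± 0.14 CPM in Hoxb1 NPs and 35.6 ± 0.925 CPM in control NPs (log2 change 0.42, adjusted p = 3.35e-08). Eif2ak2, the kinase PKR, averaged 12.6 ± 1.55 CPM in null NMPs and 15.6 ± 1.48 CPM in wild-type NMPs (log2 change -0.31, adjusted p = 0.0237). With SAG, Impact, an inhibitor of the kinase GCN2, fell (-0.32, adjusted p = 5.26e-11), as did Ppp1r15b, the constitutive phosphatase subunit (-0.25, adjusted p = 2.97e-08). Of 8 eIF2 and eIF2B subunits, 1 was higher in null NMPs, which was Eif2s2 (0.14, adjusted p = 0.0124). In Hoxb1 NPs 1 was higher, Eif2b2 (0.23, adjusted p = 0.000617), and 2 were lower, with Eif2s2 averaging 141 ± 6.72 CPM in Hoxb1 NPs and 229 ± 6.68 CPM in control NPs (log2 change -0.69, adjusted p = 8.14e-20). In Hoxb1 SAG NPs only Eif2s2 passed (-0.14, adjusted p = 0.000674).

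Of the called ATF4 targets outside the 10 genes, most were higher in null NMPs and most were lower with Hoxb1. Of 14 other ATF4-induced genes, 13 were tested in NMPs, of which 6 were higher and 0 lower in null NMPs (median log2 change 0.22). In Hoxb1 NPs 11 of 14 were lower and 1 higher (-1.08), and in Hoxb1 SAG NPs 8 were lower and 3 higher (-0.36). The 1 gene higher in Hoxb1 NPs, against the direction of its list, was Sqstm1 (log2 change 0.15, adjusted p = 0.00049). Sqstm1, an autophagy receptor, averaged 585 ± 28.3 CPM in null NMPs and 424 ± 24 CPM in wild-type NMPs (log2 change 0.46, adjusted p = 3.52e-08), and Jdp2 rose as well (0.49, adjusted p = 0.02). Adm2, a secreted peptide, averaged 0.749 ± 0.0761 CPM in Hoxb1 NPs and 4.06 ± 0.681 CPM in control NPs (log2 change -2.41, adjusted p = 6.42e-11), and Fgf21, a metabolic hormone, averaged 0.24 ± 0.191 CPM in Hoxb1 NPs and 1.25 ± 0.357 CPM in control NPs (log2 change -2.38, adjusted p = 2.12e-05). Against the direction of its list, Vldlr, a lipoprotein receptor, averaged 140.4 ± 3.3 CPM in Hoxb1 SAG NPs and 68 ± 9.3 CPM in SAG NPs (log2 change 1.05, adjusted p = 5.81e-06). Stc2, a secreted glycoprotein, averaged 16.8 ± 0.928 CPM in Hoxb1 SAG NPs and 30.4 ± 5.79 CPM in SAG NPs (log2 change -0.86, adjusted p = 0.000842). Of 15 amino acid and one-carbon targets, 10 were higher and 3 lower in null NMPs, 15 lower in Hoxb1 NPs, and 10 lower and 1 higher in Hoxb1 SAG NPs, with medians of 0.24 in null NMPs, -1.51 in Hoxb1 NPs and -0.16 in Hoxb1 SAG NPs. The 3 lower in null NMPs were Asns (-0.11, adjusted p = 0.0361), Aldh18a1 (-0.23, adjusted p = 0.000752) and Pycr1 (-0.29, adjusted p = 0.00593). The cystine transporter Slc7a11 averaged 3.83 ± 0.939 CPM in Hoxb1 NPs and 30.7 ± 3.42 CPM in control NPs (log2 change -2.99, adjusted p = 2.5e-16), and it rose in null NMPs (0.68, adjusted p = 0.000804) and fell in Hoxb1 SAG NPs (-1.47, adjusted p = 4.19e-09). After Slc7a11, the largest called change of the list was that of the glycine transporter Slc6a9 in null NMPs (0.64, adjusted p = 5.77e-05), of Slc7a3 in Hoxb1 NPs (-2.36, adjusted p = 3.94e-29) and of the leucine transporter Slc7a5 in Hoxb1 SAG NPs (-0.64, adjusted p = 1.18e-07).

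In null NMPs most called genes of the other stress programmes were higher, as the 10 genes were, while with Hoxb1 in NPs the lists went in different directions. Of 19 genes of the IRE1-XBP1 and ATF6 arms of the unfolded protein response, 11 were higher and 1 lower in null NMPs (median 0.12), 8 higher and 6 lower in Hoxb1 NPs (-0.0034), and 3 higher and 4 lower in Hoxb1 SAG NPs (-0.0071). Herpud1, a component of endoplasmic reticulum associated degradation, averaged 55.2 ± 4.56 CPM in Hoxb1 NPs and 147 ± 1.68 CPM in control NPs (log2 change -1.40, adjusted p = 1.48e-06), and 30.4 ± 1.48 CPM in Hoxb1 SAG NPs and 67.3 ± 9.56 CPM in SAG NPs (log2 change -1.14, adjusted p = 1.08e-05). Sdf2l1 rose in Hoxb1 NPs (0.80, adjusted p = 2.03e-08), Edem1 in Hoxb1 SAG NPs (0.26, adjusted p = 4.29e-07), and Atf6 (0.34, adjusted p = 0.000126) and Dnajb9 (0.28, adjusted p = 0.0428) in null NMPs. Of 10 mitochondrial chaperones and proteases, 4 were higher and 2 lower in null NMPs, 2 higher and 5 lower in Hoxb1 NPs, and 3 higher and 3 lower in Hoxb1 SAG NPs. Hspa9, the mitochondrial HSP70, averaged 483 ± 1.92 CPM in Hoxb1 NPs and 962 ± 89.7 CPM in control NPs (log2 change -0.99, adjusted p = 4.32e-10) and rose in null NMPs (0.26, adjusted p = 3.46e-06), as did Dnaja3 (0.26, adjusted p = 9.21e-05). Clpp was lower in Hoxb1 NPs (-0.31, adjusted p = 1.22e-05) and in Hoxb1 SAG NPs (-0.18, adjusted p = 0.00172), where Htra2 was higher (0.28, adjusted p = 1.46e-06). Of 10 cytosolic heat shock genes, 2 were higher in null NMPs, 3 were higher in Hoxb1 NPs, and 1 was higher and 3 lower in Hoxb1 SAG NPs. Hspa8, the constitutive HSC70 chaperone, averaged 1170.3 ± 29.3 CPM in null NMPs and 688 ± 25.1 CPM in wild-type NMPs (log2 change 0.76, adjusted p = 2.07e-13), and 108 ± 2.48 CPM in Hoxb1 NPs and 86.5 ± 2.34 CPM in control NPs (log2 change 0.33, adjusted p = 5.01e-09). Bag3 was higher in all 3 (0.13, adjusted p = 0.0466, in null NMPs, 0.45, adjusted p = 1.72e-08, in Hoxb1 NPs, and 0.40, adjusted p = 5.3e-09, in Hoxb1 SAG NPs), and Hspa4l was lower in Hoxb1 SAG NPs (-0.23, adjusted p = 1.37e-06).

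Of 13 p53 targets, 8 were higher and 1 lower in null NMPs, 7 higher and 2 lower in Hoxb1 NPs, and 10 higher and 2 lower in Hoxb1 SAG NPs, so that their medians (0.20, 0.18 and 0.28) had 1 sign. Pmaip1, the death factor NOXA, averaged 286 ± 4.42 CPM in null NMPs and 150.2 ± 6.18 CPM in wild-type NMPs (log2 change 0.93, adjusted p = 7.93e-14), and Mdm2, the ligase for p53, rose as well (0.49, adjusted p = 3.3e-05). Trp53inp1 (0.59, adjusted p = 1.23e-19) and Btg2 (0.41, adjusted p = 5.33e-14) rose in Hoxb1 NPs, and Eda2r (0.58, adjusted p = 1.85e-19) and Plk2 (0.54, adjusted p = 1.38e-16) in Hoxb1 SAG NPs. Of 7 tested of 8 NRF2 targets, 6 were higher in null NMPs, 1 was higher and 4 lower in Hoxb1 NPs, and 1 was higher and 3 lower in Hoxb1 SAG NPs. Nqo1 (0.67, adjusted p = 9.03e-06) and Gclm (0.55, adjusted p = 6.85e-08) rose in null NMPs, Hmox1 (-0.58, adjusted p = 1.34e-10) and Srxn1 (-0.29, adjusted p = 0.0121) fell in Hoxb1 NPs, and Hmox1 (-0.23, adjusted p = 0.000274) and Gclm (-0.20, adjusted p = 0.00236) fell in Hoxb1 SAG NPs. Of 16 tested paralogues and bZIP relatives of the 10 genes, 4 were higher and 1 lower in null NMPs, 5 higher and 7 lower in Hoxb1 NPs, and 6 higher and 4 lower in Hoxb1 SAG NPs. Batf3 (1.29, adjusted p = 0.000255) and Fos (0.85, adjusted p = 1.73e-06), an immediate early factor, rose in null NMPs. The C/EBP relatives Cebpd (-0.79, adjusted p = 0.000355) and Cebpa (-0.62, adjusted p = 0.0012) fell in Hoxb1 NPs, where Cebpb fell by 2.64 on the log2 scale. In Hoxb1 SAG NPs Cebpd fell (-0.41, adjusted p = 0.0113) and Trib2, a pseudokinase related to Trib3, rose (0.66, adjusted p = 1.3e-21), against -1.59 for Trib3.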

How the data were processed

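Raw read counts per gene were deposited by the authors, made with bcl2fastq 1.8.2 and featureCounts 1.4.6 on mm10, per the submitters' processing notes. Libraries were poly(A)-selected and strand-specific with 15 PCR cycles, per the labels' protocols. The sources used here name neither aligner nor annotation. The deposited length column gave the summed exon length for RPKM. Genes passing edgeR's filterByExpr were scaled by TMM and tested with edgeR's quasi-likelihood test (edgeR 4.0.16, R 4.3.3), adjusted after Benjamini-Hochberg across every tested gene, at a threshold of 0.05. NMPs were fitted on 6 libraries, NPs on 12, and the differences between NPs and NMPs on 18. The SE is the log2 change divided by the square root of F. DESeq2 1.42.0 was an alternative, and Python 3.11.15 matched promoters and motifs. Tested on simulated data, the NMP fit recovered 35 of 50 genes changed 1.5-fold and 48 of 50 changed 2-fold among 15032, with 10 false calls, and the comparison of Hoxb1 with control NPs recovered 35 and 42 of 50 among 16238, with 10. The 10 genes and all lists were chosen with earlier results of these data known. Named besides them were Hoxb1, 2 called genes per list and comparison with the largest change and at least 1 CPM in the higher group, 3 most alike genes with at least 10 CPM, and genes sharing exon bases with a member. Of the listed genes, Gcn1, Atf7 and Nupr2 were not matched by symbol. Group means carry the SD of 3 libraries.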

Additional observations from a re-analysis of the deposited data

Results flagged for a closer look

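The effect of Hoxb1 differed between settings for many of the 10 genes, by a test of the difference itself (edgeR's quasi-likelihood test, adjusted p under 0.05 over all genes). For the effect with SAG minus that without SAG in NPs, the log2 differences were 0.41 for Atf4, 3.57 for Atf5, 0.90 for Atf3, 0.73 for Ddit3, 2.45 for Cebpb, 2.08 for Nupr1, 1.88 for Trib3, 0.48 for Sesn2 and 0.83 for Gdf15. For the effect in NPs without SAG minus that of wild type over null in NMPs, they were -0.57 for Atf4, -3.09 for Atf5, -1.35 for Atf3, -0.76 for Ddit3, -2.16 for Cebpb, -0.83 for Nupr1, -2.09 for Trib3, -1.75 for Chac1 and -0.86 for Sesn2. For the effect in NPs with SAG minus that in NMPs, they were -0.15 for Atf4, 0.48 for Atf5, 1.25 for Nupr1, -1.52 for Chac1, -0.37 for Sesn2 and 1.26 for Gdf15. Of all tested genes, 16.8% were called higher by SAG in NPs and 17.6% lower between NPs without SAG and NMPs. Between NPs with SAG and NMPs, 15.9% were called higher and 15.7% lower. The call for Atf3 by SAG in NPs was lost in 7 fits with 1 library left out. Between NPs with SAG and NMPs, those for Gdf15 and Atf4 were each lost in 1 such fit. The library set and depth differ between the settings and cannot be told apart from them, both sets that use NPs without SAG share the Hoxb1 NP and control NP libraries, both sets that use NPs with SAG share the Hoxb1 SAG NP and SAG NP libraries, and both sets that use NMPs share those libraries.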

How the results depend on the processing

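Counts were recomputed with DESeq2, upper-quartile scaling, no filter, a stricter filter, all 18 libraries in 1 fit, the 6 libraries of the compared groups alone, and with each library left out. Of 608 counts, 604 stayed within 1.5 times. Of 1670 values of single genes, 0 changed sign where the main or the alternative fit called the gene, 21 lost and 4 gained a call. Sign changes without a call in either fit were not counted. Gdf15 in Hoxb1 SAG against SAG NPs, at -0.082, reached 0.029 with 1 library left out. The 4 counts that moved further came from leaving out 1 library. In Hoxb1 SAG against Hoxb1 NPs the members called higher ranged from 1 to 2, with 1 without Hoxb1 SAG replicate 1 or 3 or Hoxb1 replicate 2. In the difference between NPs with SAG and NMPs the members called lower ranged from 2 to 5, with 5 without SAG replicate 1. With the replicate number as a block, the calls of the 10 genes were the same in number in all 8 comparisons, and all genes gave 2181 higher and 2047 lower in null NMPs, 3972 higher and 3641 lower in Hoxb1 NPs and 3621 higher and 3653 lower in Hoxb1 SAG NPs. Same-numbered libraries correlated in their deviations from group means by -0.053 to 0.22, and no comparison passed 0.1 in all 3 pairs. The main fits therefore used no pairing, but this does not exclude it. In Hoxb1 SAG against SAG NPs the correlation was 0.22 for replicate 1, 0.21 for replicate 2 and 0.015 for replicate 3. Gdf15 in NMPs is limited by depth, with 4 of its 6 values under 20 counts.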

Other observations

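Control NP replicate 1 was the lowest of its group for 10 genes and replicate 3 the highest for 8. Wild-type NMP replicate 1 was the highest of its group for 9, SAG replicate 1 the lowest for 7 and Hoxb1 replicate 1 the highest for 7. Replicates of the same group differed by more than counting error in all 18 pairs, with a chi-square per gene of 1.35 to 5.07, the widest between null NMP replicates 1 and 3.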
